A study of Mus musculus with 17 samples.

Results

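The 9 liver-enriched transcription factors described here are Hnf4a, Cebpa, Cebpb, Foxa1, Foxa2, Foxa3, Nr5a2, Onecut1 and Prox1. They were chosen by name as liver-enriched factors, not by a threshold on measured values, out of 55536 gene identifiers in the RNA-seq tables. Earlier results of these data were known when they were chosen. All 9 were found and all 9 passed the filter on low counts, which kept 14393 genes.

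These factors form the network that sets and maintains hepatocyte identity. FOXA proteins open closed chromatin at liver enhancers, HNF4A drives lipoprotein, clotting and bile acid genes, and the C/EBP pair balances metabolic and acute-phase programmes. NR5A2 controls bile acid and cholesterol genes, while ONECUT1 and PROX1 act in liver development and stay active in the adult. Many of them bind each other's promoters.

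The cells were hepatocytes isolated by collagenase perfusion from 3-month-old C57BL/6J mice of genotype ApcDHep, in which loss of Apc in hepatocytes releases β-catenin signalling. AAV8 delivering SaCas9, a compact Cas9 nuclease, had been in every mouse for 1 month, and each received tamoxifen (2 mg, 7 days). One group, WRE-edited (condition DLK1DWRE, 6 libraries), was targeted at the β-catenin binding site that lies upstream of DLK1/DIO3, and the other, Rosa26-edited (5 libraries), at a control locus. Both groups share the Apc deletion, the vector, the nuclease and tamoxifen, so no group here had intact Apc or was unedited. The libraries carry 3 run names: r770 (3 WRE-edited, 3 Rosa26-edited), r595 (1 and 2) and r711 (2 WRE-edited, no control).

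The libraries held 20727036 to 38935135 expected counts. The hepatocyte markers (8 genes, among them Alb and Apob) summed to 47050 to 64810 CPM, counts scaled to library size with TMM factors, whereas the bile duct markers Krt19, Krt7 and Epcam were below the filter. Rian, the non-coding RNA of the targeted locus, was the 1 gene called by edgeR, at a log2 fold change of -2.30 ± 0.26 (SE; adjusted p = 0.0188), with no overlap between WRE-edited (48.7 to 113 CPM) and Rosa26-edited libraries (171 to 405). Whether the libraries came from separate animals is not stated, so p-values cover the spread between these samples, which may be technical. In these bulk samples, fewer cells of a type and less RNA per cell cannot be told apart.

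By TPM, which divides by transcript length and so allows levels of different genes to be compared, Hnf4a was the most abundant of the 9, with a median of 60.7 over the 11 libraries. Next came Cebpb (23.1 TPM), Cebpa (16.5), Nr5a2 (12.2), Foxa3 (11.7), Prox1 (6.69), Foxa2 (5.75), Onecut1 (5.17) and Foxa1 (1.99). The top and bottom of this order held in every library: Hnf4a exceeded Cebpb, and Onecut1 exceeded Foxa1, in 11 of 11. Cebpa exceeded Nr5a2 in 10 of 11 and Foxa3 exceeded Prox1 in 10 of 11. Cebpb exceeded Cebpa in 8. The neighbours Nr5a2 and Foxa3 kept their order in 6 libraries, Prox1 and Foxa2 in 5, and Foxa2 and Onecut1 in 6, so these pairs did not differ in level beyond the spread between libraries. In CPM the coefficient of variation over the 11 libraries was lowest for Nr5a2 (11.6%) and Foxa3 (17.4%) and highest for Foxa2 (45.4%) and Onecut1 (44.25%).

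The first comparison asked whether the 9 factors differed between WRE-edited and Rosa26-edited hepatocytes once the run was taken into account. The fitted fold changes were above 0 for 9 of 9 factors, where 51.7% of all tested genes were, and their median log2 fold change was 0.45 against 0.01 over all tested genes. Foxa2, Cebpb, Onecut1 and Foxa3 had the highest estimates, and Nr5a2 and Prox1 the lowest. None of the 9 passed edgeR's quasi-likelihood test at an adjusted p under 0.05, a threshold passed by 0.00695% of tested genes. At an unadjusted p under 0.05 there were 5 of 9 (55.6%), each higher in WRE-edited libraries. Over all tested genes there were 10.1% in both directions, 4.95% higher and 5.14% lower. Most pairs of the 9 varied together across libraries, as given further on, so these are not counts of independent genes. DESeq2 with the same terms called 2 of 9, Foxa2 and Foxa3, where it called 0.6% of genes in both directions and 0.123% as higher.

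**Figure D1:**
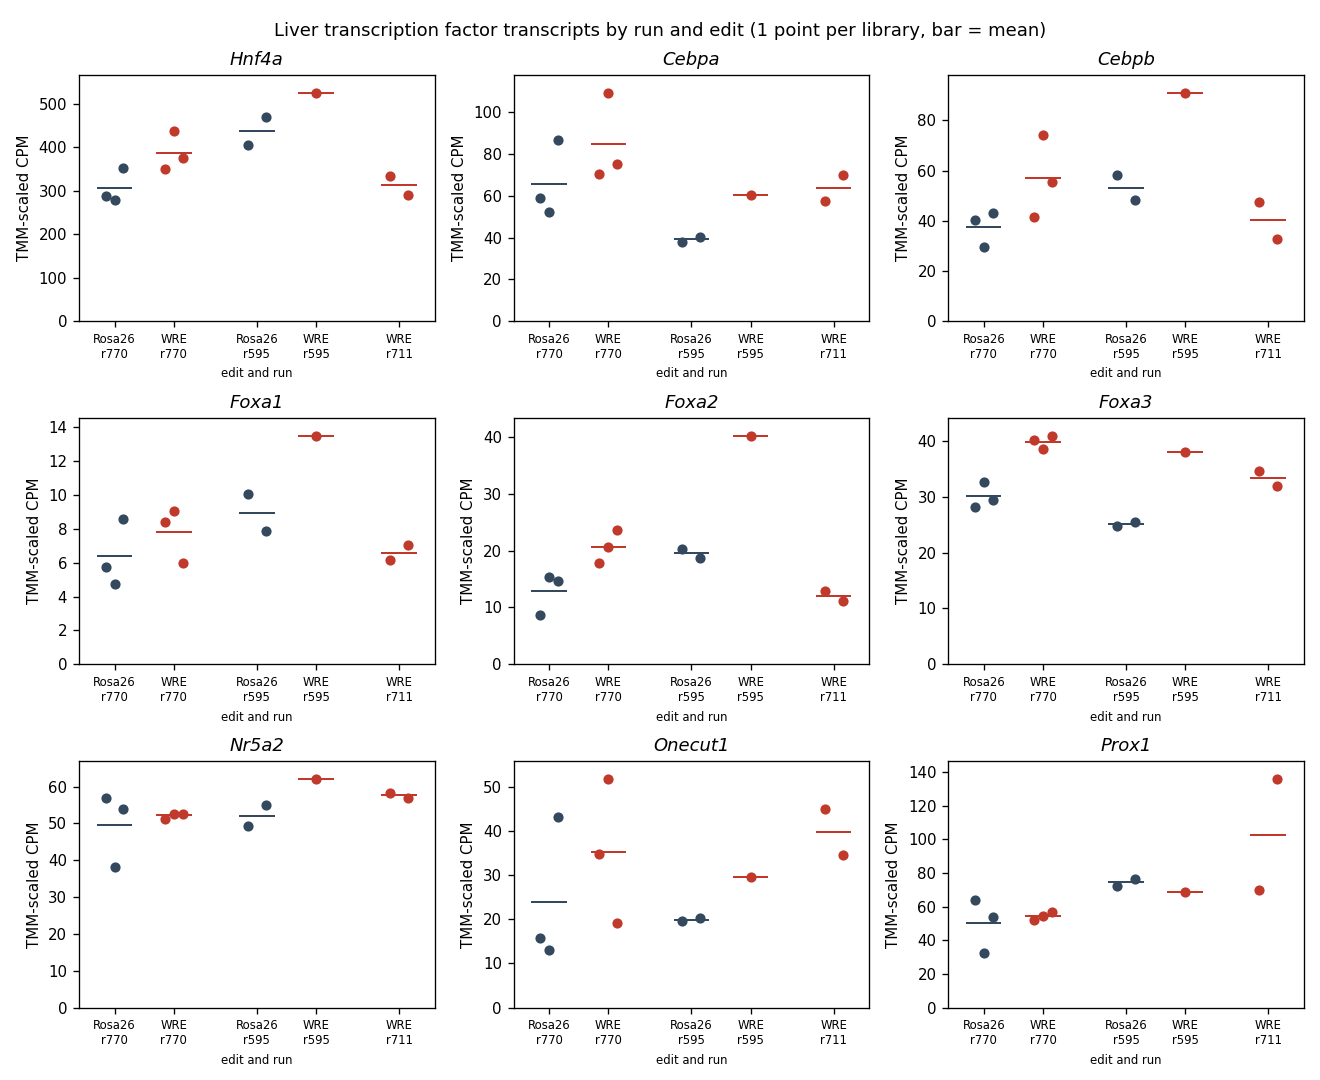
TMM-scaled CPM (y axis, from 0) of each factor by edit and run, with 1 point per library and a bar at the mean of each set. Within r770 the 3 WRE-edited libraries lie above the 3 Rosa26-edited libraries for Foxa2 and Foxa3, and r711, which has no control, lies low for Foxa2 (11.2 and 12.8 CPM).

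The 3 FOXA genes encode related forkhead proteins with a shared DNA-binding domain, which act as pioneer factors in the liver. Foxa2, which also acts in fasting metabolism, lies on chromosome 2, from 148042877 to 148046969 (GRCm38.p6, minus strand). In r770 it stood at 17.8, 20.6 and 23.6 CPM in the WRE-edited libraries and at 8.66, 15.3 and 14.7 CPM in the Rosa26-edited ones. In r595 WRE-edited 6 had 40.1 CPM against 20.3 and 18.7 CPM, while WRE-edited 4 and 5 of r711 had 12.8 and 11.2 CPM. Within both runs that hold controls, each WRE-edited library was above each Rosa26-edited library, but both r711 libraries were below 4 of the 5 Rosa26-edited libraries, so the groups overlapped over all 11. With run as a term the log2 fold change was 0.80 ± 0.17 (SE), a 1.74-fold difference (edgeR unadjusted p = 0.000475, adjusted p = 0.263). DESeq2 gave 0.80 ± 0.19 with an adjusted p of 0.0123.

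Foxa3, which helps to keep up glucose output in fasting, lies on chromosome 7 from 19013283 to 19023539 (minus strand). Its WRE-edited values in r770 were 40.1, 38.6 and 40.8 CPM, and its Rosa26-edited values were 28.1, 32.7 and 29.5 CPM. WRE-edited 6 had 38.0 CPM in r595, with 24.7 and 25.6 CPM in the controls, and the r711 libraries had 34.6 and 32.0 CPM. Only Rosa26-edited 2 (32.7 CPM) and WRE-edited 5 (32.0 CPM) crossed, and the other 9 libraries separated by edit. The group means were 37.4 ± 3.39 CPM (SD, n = 6) and 28.1 ± 3.20 CPM (SD, n = 5). Its log2 fold change was 0.46 ± 0.10 (SE; edgeR unadjusted p = 0.000611, adjusted p = 0.266), and DESeq2 gave 0.47 ± 0.11 with an adjusted p of 0.00502.

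Foxa1, whose product overlaps in function with FOXA2 in early liver development, lies on chromosome 12 from 57540628 to 57548029 (minus strand). It was the least abundant factor, with 129 to 312 expected counts per library. In r770 the WRE-edited libraries had 8.42, 9.02 and 6.00 CPM and the Rosa26-edited ones 5.74, 4.76 and 8.60 CPM, which overlapped. WRE-edited 6 had 13.5 CPM against 10.1 and 7.86 CPM, and r711 had 6.14 and 7.03 CPM. Foxa1 had a log2 fold change of 0.39 ± 0.20 (SE; edgeR unadjusted p = 0.0682). Ttc6, whose annotated span overlaps Foxa1, had 454 counts in all libraries together, and with the strand setting of counting not given in the sources used here, reads in the overlap cannot be assigned with certainty.

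The share of Foxa2 within the FOXA family was higher in r595 than in r770, with no overlap, while within r770 the WRE-edited and Rosa26-edited shares overlapped. Of the summed FOXA TPM, Foxa2 took 29.1%, 32.3% and 35.1% in the WRE-edited libraries of r770 and 21.5%, 30.7% and 29.0% in the Rosa26-edited ones. In r595 it took 50.6% in WRE-edited 6 and 45.4% and 39.95% in the controls, and in r711 26.04% and 23.8%. Foxa3 was the larger part in r770 (58.1% to 69.8%) and r711 (66.7% and 67.0%), but in r595 it took 40.5% in WRE-edited 6 and 43.6% and 50.4% in the controls. Foxa1 stayed between 5.43% and 11.04%. No test was run on these shares, and the isoform-weighted length behind the Foxa2 TPM varied from 1636 to 2094 bases between libraries, while that of Foxa3 was 2037 bases in all.

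Foxa2 and Foxa3 also varied together more closely than any other pair of the 9, as given further on, so their promoter windows are printed here with that of Foxa1 for comparison. The sequences come from RefSeq (GRCm38.p6) and run 5′ to 3′ along the gene's strand from 250 bases before an annotated start to 50 after, and were found for all 9 factors in 14 windows. Capitals mark matches to motifs searched on both strands: TGTTTAC and TGTTTGC (FOXA), CTTTGAT and CTTTGAA (TCF/LEF, the partners of β-catenin), CAAAGTC and CAAAGGT (HNF4), AAGGTCA (NR5A), ATTGATT and ATCGATT (ONECUT), TTGCNNAA (C/EBP), GTTAATN (HNF1) and TATAAA, the letters of the TATA box. CAAAGGT and AAGGTCA can share letters, and no matches overlapped in the windows shown. Foxa2 has 3 annotated starts, and its middle window, which held no match, is not printed.
The windows are chr12:57546062-57546361 for Foxa1, chr2:148046920-148047219 and chr2:148045415-148045714 for the first and the third of Foxa2, and chr7:19023490-19023789 for Foxa3, all on the minus strand.
Foxa1: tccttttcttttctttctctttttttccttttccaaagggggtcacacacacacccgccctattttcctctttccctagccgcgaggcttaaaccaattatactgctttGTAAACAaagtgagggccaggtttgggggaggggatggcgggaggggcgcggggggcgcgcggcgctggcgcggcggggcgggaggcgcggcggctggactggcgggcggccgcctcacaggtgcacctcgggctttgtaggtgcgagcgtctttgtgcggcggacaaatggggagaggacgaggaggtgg
Foxa2 window 1: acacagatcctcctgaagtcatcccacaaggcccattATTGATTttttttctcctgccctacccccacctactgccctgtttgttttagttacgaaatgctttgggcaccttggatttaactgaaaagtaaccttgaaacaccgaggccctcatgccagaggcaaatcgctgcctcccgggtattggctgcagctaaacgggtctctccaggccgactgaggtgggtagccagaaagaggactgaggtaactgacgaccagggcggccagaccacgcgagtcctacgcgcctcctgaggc
Foxa2 window 3: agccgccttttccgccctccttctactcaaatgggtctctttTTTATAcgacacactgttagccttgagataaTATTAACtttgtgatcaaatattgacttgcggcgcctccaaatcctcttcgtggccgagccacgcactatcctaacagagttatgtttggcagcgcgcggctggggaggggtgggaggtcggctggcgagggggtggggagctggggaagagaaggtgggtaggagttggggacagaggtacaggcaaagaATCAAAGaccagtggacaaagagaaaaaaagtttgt
Foxa3: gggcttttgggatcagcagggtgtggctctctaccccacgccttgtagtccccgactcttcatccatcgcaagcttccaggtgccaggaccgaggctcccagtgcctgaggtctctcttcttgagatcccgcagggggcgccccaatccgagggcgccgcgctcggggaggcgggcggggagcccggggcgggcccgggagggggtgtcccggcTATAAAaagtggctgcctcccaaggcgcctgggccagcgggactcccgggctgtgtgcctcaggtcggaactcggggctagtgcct

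In these windows the Foxa1 capitals are a FOXA motif on the opposite strand, and Foxa2 window 1 holds an ONECUT motif. Foxa2 window 3 holds, in order, TATAAA (first base at -208 from the start), an HNF1 motif and a TCF/LEF motif, all on the opposite strand. In the Foxa3 window TATAAA lies on the gene's own strand, 36 bases before the start. TATAAA is the only searched motif that Foxa2 and Foxa3 windows have in common, on unlike strands and at unlike positions. Over 32851 promoter windows of the same length, 3.65% held TGTTTAC, 2.86% ATTGATT, 3.73% CTTTGAT, 7.08% GTTAATN and 13.6% TATAAA. Among the other factors, matches were ATTGATT in an Hnf4a window, GTTAATN at 2 places in its other window, GTTAATN and TTGCNNAA in windows of Nr5a2, TGTTTGC in a window of Prox1, and TATAAA in windows of Cebpa, Cebpb, Nr5a2 and Prox1. A match is a run of letters and not a binding site, and no binding was measured here.

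Hnf4a, which encodes a nuclear receptor at the centre of the network, lies on chromosome 2 from 163506811 to 163572907 (plus strand). In r770 its WRE-edited values were 349.9, 437 and 376 CPM and its Rosa26-edited values 287, 279 and 352 CPM. In r595 WRE-edited 6 had 525 CPM against 406 and 470.2 CPM, and r711 had 335 and 289.9 CPM. The groups met in r770, where Rosa26-edited 3 was just above WRE-edited 1. Hnf4a had a log2 fold change of 0.32 ± 0.13 (SE; edgeR unadjusted p = 0.0263, adjusted p = 0.443), while the group means over all runs, 386 ± 83.9 CPM (SD, n = 6) and 359 ± 80.8 CPM (SD, n = 5), differed by less than their SD. The antisense gene Hnf4aos, which overlaps Hnf4a, had at most 14 counts in any library, where Hnf4a had 7049 to 15119.

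The C/EBP pair are basic leucine zipper factors that bind the same kind of site. Cebpa, the factor of the differentiated and quiescent hepatocyte, lies on chromosome 7 from 35119293 to 35121928. In r770 it stood at 70.2, 109 and 75.3 CPM in WRE-edited libraries and at 59.0, 52.2 and 86.5 CPM in Rosa26-edited ones. WRE-edited 6 had 60.4 CPM against 37.9 and 40.4 CPM in r595, and r711 had 57.7 and 69.8 CPM. Rosa26-edited 3 was above WRE-edited 1 and 3, so the groups overlapped in r770. For Cebpa the log2 fold change was 0.45 ± 0.17 (SE; edgeR unadjusted p = 0.0245, adjusted p = 0.441).

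Cebpb, the factor of the acute phase and of liver regeneration, lies on chromosome 2 from 167688915 to 167690432. Its values in r770 were 41.4, 74.1 and 55.6 CPM (WRE-edited) and 40.4, 29.5 and 43.2 CPM (Rosa26-edited). WRE-edited 6 had 90.9 CPM against 58.2 and 48.2 CPM, and r711 had 47.6 and 32.8 CPM. WRE-edited 1, which lay below Rosa26-edited 3, kept the r770 groups from separating. Cebpb had a log2 fold change of 0.65 ± 0.18 (SE; edgeR unadjusted p = 0.00385, adjusted p = 0.384; DESeq2 adjusted p = 0.0922). Its expected counts were whole numbers in 0 of 11 libraries, so some of its reads were shared with other features. The ratio of Cebpa to Cebpb in TPM was 0.757 to 0.927 in WRE-edited and 0.842 to 1.11 in Rosa26-edited libraries of r770. In r595 it was 0.365 in WRE-edited 6 and 0.357 and 0.459 in the controls, and in r711 it was 0.682 in WRE-edited 4 and 1.261 in WRE-edited 5.

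Nr5a2, an orphan nuclear receptor also called LRH-1, lies on chromosome 1 from 136842562 to 136960448 and had the lowest coefficient of variation. The WRE-edited libraries of r770 had 51.2, 52.7 and 52.7 CPM and the Rosa26-edited ones 57.0, 38.1 and 54.0 CPM. In r595 the values were 62.0 CPM against 49.4 and 54.9 CPM, and in r711 58.3 and 57.0 CPM. The groups overlapped, with Rosa26-edited 2 the lowest of all libraries. At 0.13 ± 0.13 (SE; edgeR unadjusted p = 0.344) the log2 fold change was smaller than its SE, which does not show that the level stayed the same.

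Onecut1, also called HNF6, lies on chromosome 9 from 74861921 to 74889648 and had the largest standard error. In r770 the WRE-edited values were 34.9, 51.7 and 19.2 CPM and the Rosa26-edited values 15.7, 13.0 and 43.2 CPM. WRE-edited 6 had 29.6 CPM against 19.7 and 20.2 CPM, and r711 had 45.05 and 34.7 CPM. Each group of r770 held a library inside the other group's range. Onecut1 had a log2 fold change of 0.56 ± 0.37 (SE; edgeR unadjusted p = 0.152). Prox1, a homeobox factor that represses bile acid and lipid genes and also marks lymphatic endothelium, lies on chromosome 1 from 190118035 to 190170827. In r770 it had 51.9, 54.4 and 56.9 CPM (WRE-edited) and 64.0, 32.7 and 53.8 CPM (Rosa26-edited). WRE-edited 6 had 68.7 CPM against 72.5 and 76.2 CPM, and r711 had 69.9 and 136 CPM. Prox1 had a log2 fold change of 0.05 ± 0.21 (SE; edgeR unadjusted p = 0.831). Expected counts were whole numbers in 3 of 11 libraries for Onecut1 and in 1 of 11 for Prox1. As for Cebpb, some reads of both genes were thus shared with other features. Of 6 lymphatic markers, Flt4, Lyve1 and Reln stood at 13.3 and 13.6 CPM, 13.9 and 15.3 CPM and 31.7 and 38.1 CPM (means of WRE-edited and Rosa26-edited libraries). Pdpn, Ccl21a and Mmrn1 were below the filter. Reln is also among the stellate cell and fibroblast markers used here, and the cell source of the Prox1 transcripts was not tested. Prox1os, which overlaps Prox1, had 207 counts in all libraries together against 20083 for Prox1.

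The second comparison asked whether the difference was found within each run. Within r770 alone, all 9 factors had a positive mean log2 difference. Foxa2 (0.69 ± 0.23, SE; edgeR unadjusted p = 0.0137), Foxa3 (0.42 ± 0.15; unadjusted p = 0.0182) and Cebpb (0.61 ± 0.24; unadjusted p = 0.0289) were at an unadjusted p under 0.05, 3 of 9 (33.3%) against 3.08% of genes tested in that run. No gene was called there (0%), with an adjusted p of 0.998 for each of the 9. The r770 groups did not overlap for 2 of 9 factors (22.2%), Foxa2 and Foxa3, both higher, against 3.29% of genes higher, 4.34% lower and 7.64% in either direction. Those 2 were also above both controls in r595, and 1.88% of genes were higher without overlap in both runs. Over all 11 libraries no factor separated, against 0.153% of genes higher.

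In r595, with 1 WRE-edited library and 2 controls, the log2 differences were 1.04 for Foxa2, 0.78 for Cebpb, 0.62 for Cebpa, 0.60 for Foxa3, 0.59 for Foxa1, 0.57 for Onecut1, 0.26 for Hnf4a and 0.25 for Nr5a2. Prox1 was the exception at -0.11. The sign was the same in both runs for 8 of 9 factors (88.9%), where it was the same for 60.9% of all tested genes. The 2 runs share no library. A test of the difference between the runs (edgeR interaction) called 0% of 14582 genes and put 6.52% below an unadjusted p of 0.05. It gave the factors unadjusted p from 0.383 to 0.991. With 1 WRE-edited library in r595 this does not show that the effects were alike. For Foxa2 the interaction was 0.36 ± 0.39 (SE) on the log2 scale.

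**Figure D2:**
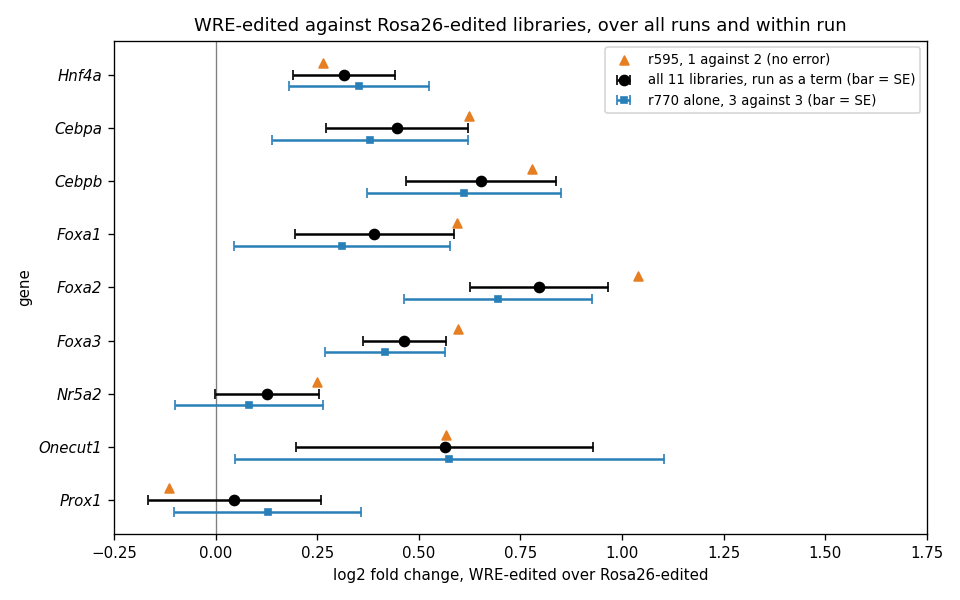
Log2 fold change (x axis) of each factor over all 11 libraries with the run as a term (black, bar = SE), within r770 (blue, bar = SE) and within r595 (orange, no error). In both fits the estimates lie to the right of 0 by more than their SE for 7 of 9 factors, all but Nr5a2 and Prox1, and Prox1 in r595 is at -0.11.

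Several of these transcripts differed between runs in the control libraries, with no test run on 2 against 3. Taken as the mean of log2 CPM, the level of Rosa26-edited libraries in r595 was 1.56-fold that in r770 for Foxa2 and 1.54-fold for Prox1. It was 1.44-fold for Foxa1, 1.43-fold for Hnf4a and 1.42-fold for Cebpb. It was 0.609-fold for Cebpa and 0.837-fold for Foxa3, and 1.06-fold and 0.965-fold for Nr5a2 and Onecut1. With the run left out of the model, the log2 fold changes became 0.44 for Foxa2, 0.38 for Cebpb, 0.17 for Foxa1 and 0.10 for Hnf4a, and 2 of 9 were at an unadjusted p under 0.05, against 4.41% of all tested genes in that fit. These were Foxa3 (0.41; edgeR unadjusted p = 0.00427) and Onecut1 (0.68; unadjusted p = 0.0413). Run cannot be told apart from edit for WRE-edited 4 and 5, since r711 has no control.

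A pair of WRE-edited libraries in different runs, WRE-edited 4 (r711) and WRE-edited 6 (r595), carry the same number in their names. The labels do not say what the number stands for. Foxa2 was 3.11-fold higher in WRE-edited 6, which placed this difference at percentile 98.2 of all tested genes. For Foxa1 the ratio was 2.18, for Cebpb 1.91, for Hnf4a 1.57 and for Onecut1 0.657, and it was between 0.982 and 1.096 for Foxa3, Nr5a2, Cebpa and Prox1. With these libraries summed to 1 and no run term, Foxa3 alone was at an unadjusted p under 0.05 (log2 fold change 0.41; edgeR unadjusted p = 0.00579), 1 of 9 against 4.37% of all tested genes in that fit. There Foxa2 had 0.36 and Hnf4a 0.07.

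The third comparison asked how far each estimate depended on single libraries. Leaving out 1 library at a time kept Foxa2 between 0.68 and 0.91, Foxa3 between 0.40 and 0.52 and Cebpb between 0.51 and 0.78, each at an edgeR unadjusted p under 0.05 in 11 of 11 fits. Hnf4a stayed between 0.25 and 0.39, under that p in 8 of 11. Cebpa ran from 0.32 without WRE-edited 2 to 0.62 without Rosa26-edited 3, under that p in 7 of 11. Foxa1 ran from 0.30 to 0.59 and was under that p in 2 of 11, and Nr5a2 from 0.03 to 0.21 in none.

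Onecut1 rested on single libraries most of all. Its log2 fold change was 0.32 without WRE-edited 2 and 1.05 without Rosa26-edited 3, whose 43.2 CPM was more than the other 4 control libraries reached (13.0 to 20.2 CPM), and the latter fit was the 1 of 11 at an unadjusted p under 0.05 (edgeR unadjusted p = 0.00423). Prox1 turned to -0.11 without Rosa26-edited 2, its lowest library. The number of factors at an unadjusted p under 0.05 was 3 without Rosa26-edited 1, without Rosa26-edited 2 and without WRE-edited 2, 4 without WRE-edited 6, and 7 without Rosa26-edited 3. In those 5 fits the share over all tested genes was 7.72%, 10.4%, 11.4%, 4.24% and 13.8%. Without WRE-edited 6 the effect rests on r770 alone, since the r595 controls then have no partner.

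**Figure D3:**
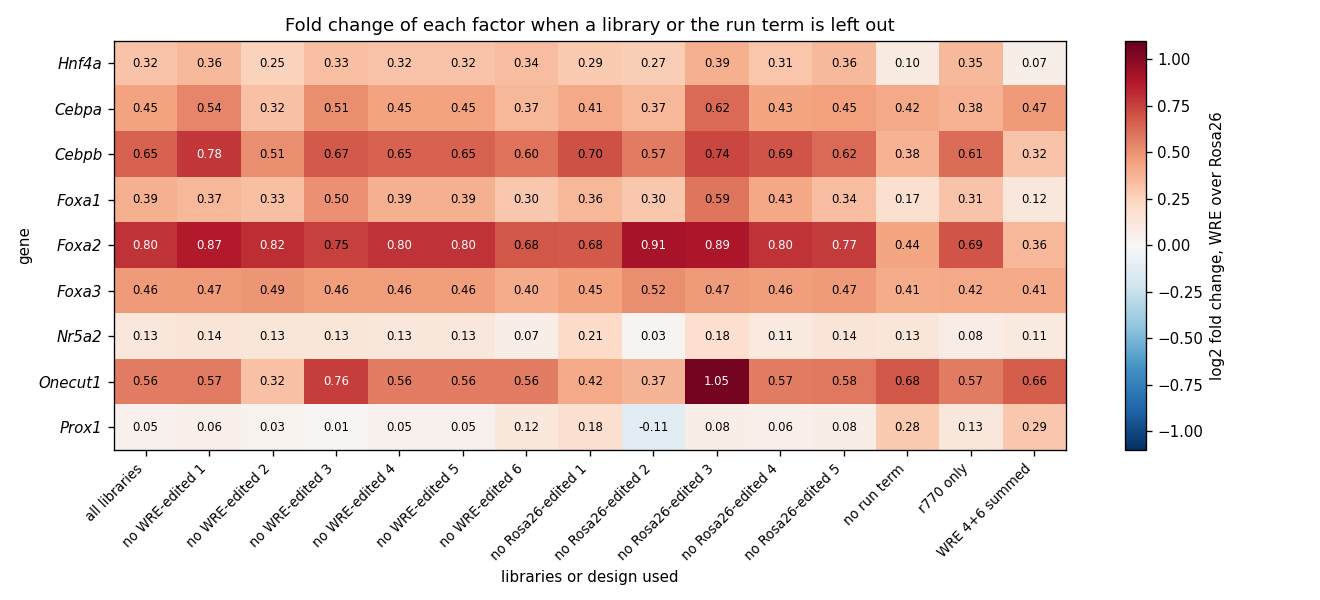
Log2 fold change of each factor (rows of the grid) over all libraries, without each library in turn, without the run term, in r770 only, and with WRE-edited 4 and 6 summed. Foxa3 keeps 0.40 to 0.52 across the fits without 1 library, whereas Onecut1 moves between 0.32 and 1.05 and Prox1 turns to -0.11 without Rosa26-edited 2.

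Some measures of the libraries differed between them too. In r770 mitochondrial ribosomal RNA took 28.1% and 28.03% of counts in Rosa26-edited 1 and 2, the libraries lowest in the summed share of the 9 factors (0.0489% and 0.0443% of counts). It took 19.02% to 23.3% in the other 4, where the factors summed to 0.0633% to 0.0858%. In r711 WRE-edited 4 and 5 had 26.8% and 29.1% of mitochondrial ribosomal RNA and factors at 0.06201% and 0.0632%. The r595 libraries had far less of this RNA, 2.29% in WRE-edited 6 and 2.995% and 2.54% in the controls. Their factors summed to 0.102%, 0.0861% and 0.0907%. The part of this RNA in the results on the 9 factors was not tested. With scaling factors computed without mitochondrially encoded genes the median of the 9 was 0.46. The early response genes of cell dissociation (10 genes, such as Fos and Egr1) summed to 787 CPM in Rosa26-edited 1 and to 120.2 to 313 CPM in the other 10 libraries. Without Rosa26-edited 1 the Foxa2 log2 fold change was 0.68 and that of Foxa3 0.45.

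Fitted medians of most marker lists of other liver cells were below 0. Where 51.7% of all tested genes were positive, the 8 macrophage markers were negative in 8 of 8, with a median of -0.42. Their sum was 371 to 496 CPM in the WRE-edited libraries and 336 to 1152 CPM in the Rosa26-edited ones, highest in Rosa26-edited 2 (828 CPM) and 5 (1152 CPM). All 7 tested of 8 stellate cell and fibroblast markers were negative, with a median of -0.53, and Acta2 was below the filter. Their sum was lowest in WRE-edited 3 (40.5 CPM) and WRE-edited 6 (40.2 CPM), against 50.4 to 102 CPM in the other 9. Without WRE-edited 3 and 6, Foxa2 had 0.58 (edgeR unadjusted p = 0.0323) and Foxa3 0.39 (unadjusted p = 0.0139), and these were the 2 of 9 at an unadjusted p under 0.05, against 3.05% of all genes. Medians were -0.22 for 8 blood endothelial markers (7 negative), -0.29 for the 3 tested of 6 lymphatic markers, -0.51 for the 4 tested of 8 neutrophil markers and 0.22 for the 3 tested of 10 bile duct markers. The hepatocyte markers had a median of -0.03, 4 higher and 4 lower. The part of these cells in the results on the 9 factors was not tested.

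Most pairs of the 9 factors varied together across libraries. After the mean of each run was subtracted from log2 CPM, the Pearson correlation over the 11 libraries was positive in 34 of 36 pairs, with a median of 0.593. Foxa2 and Foxa3 had the highest value (0.921), followed by Foxa1 with Onecut1 (0.879) and Hnf4a with Cebpb (0.853). Prox1 stood apart, with -0.218 to Foxa2 and -0.142 to Foxa3, and its highest value was 0.596 to Nr5a2. The Prox1 values include WRE-edited 5 at 136 CPM, against 69.9 CPM in WRE-edited 4 of the same run, and were not correlated again without it. These are descriptions: the points share libraries, their scaling and the edit. The share of positive pairs over all tested genes was not computed, so varying together is not shown to be particular to the 9.

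**Figure D4:**
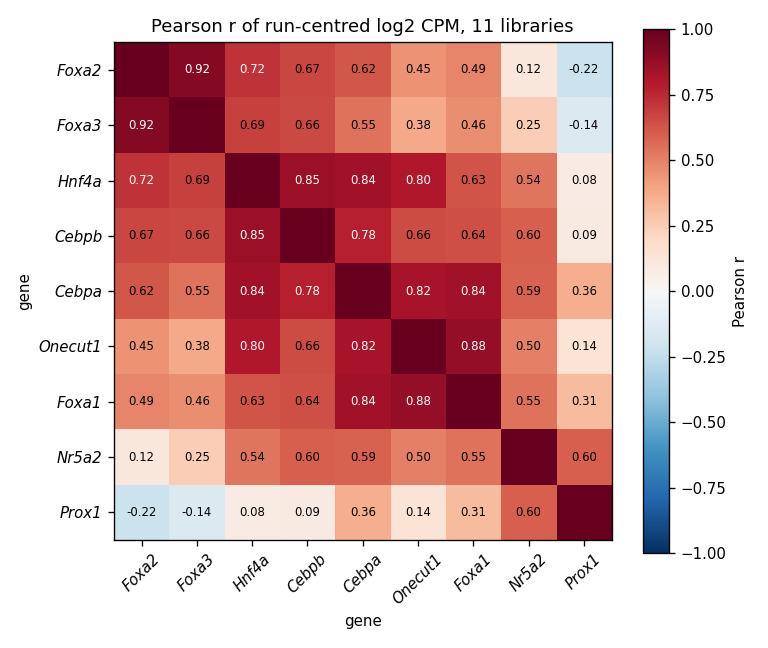
Pearson r of run-centred log2 CPM between each pair of the 9 factors over 11 libraries, with the value printed in each cell. Foxa2 with Foxa3 is highest at 0.92 and Prox1 is near or below 0 with Foxa2, Foxa3, Hnf4a and Cebpb.

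Over all tested genes, the 2 with the pattern most like Foxa2 by the same measure were H2-Ke6 (0.963) and Eif3f (0.960). For Foxa3 they were H2-Ke6 (0.965) and Gm11273 (0.952), so the FOXA pair shared its nearest gene. The nearest to Hnf4a were Rbm15b (0.974) and Ttyh3 (0.971). Cebpa lay nearest to Rxra (0.954), which encodes the partner of many liver nuclear receptors, and Pdcd6ip (0.952). Cebpb lay nearest to Btbd6 (0.973) and Sash1 (0.970), Foxa1 to Npepps (0.943) and Spag1 (0.940), and Nr5a2 to Ift140 (0.973) and Smad3 (0.966). Onecut1 lay nearest to Zcchc2 (0.960) and Crkl (0.947). Prox1 had the loosest matches, Gm22154 (0.905) and Gm26684 (0.881). These are the 2 highest of 14393 genes for each factor, so they carry no test.

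The fourth comparison put the 9 beside other factors of the liver and beside genes that the 9 are known to control. Of 45 other liver transcription factors 44 were tested (Nr2f1 was below the filter). Of these, 36 (81.8%) had positive and 8 negative log2 fold changes, where 51.7% of all tested genes were positive. Their median was 0.22. In edgeR 0 passed over all genes. At an edgeR unadjusted p under 0.05, 7 (15.9%) were higher and 0 lower, against 4.95% and 5.14% of all tested genes. DESeq2 called 1, Creb3l3, as higher, where it called 0.123% of genes as higher. Creb3l3, a membrane-bound factor of fasting lipid metabolism, had 137 ± 26.8 CPM (SD, n = 6) against 85.3 ± 11.1 CPM (SD, n = 5), a log2 fold change of 0.52 ± 0.13 (edgeR adjusted p = 0.361, DESeq2 adjusted p = 0.0439). Tbx3, a β-catenin target in liver, had 0.86 ± 0.23 and Atf5 0.63 ± 0.24.

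The known targets had list medians from -0.09 to 0.15, against 0.45 for the factors. Over all tested genes 51.7% were positive, 10.1% were at an edgeR unadjusted p under 0.05, and the median was 0.01. HNF4A target genes (18 tested) were positive in 13 and negative in 5, with a median of 0.10, and 0 were at an unadjusted p under 0.05. Among them the clotting genes F12 and F9 had 0.22 ± 0.11 (SE) and -0.24 ± 0.13. C/EBP target genes (18 tested) were positive in 5 and negative in 13, with a median of -0.09, and 0 were at an unadjusted p under 0.05. There F8, another clotting gene, had -0.61 ± 0.28, and the urea cycle gene Arg1 -0.60 ± 0.44. The acute-phase genes Hp and Orm1 had -0.39 ± 0.30 and -0.24 ± 0.23. The cell source of the F8 transcripts was not tested.

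FOXA target genes (15 tested of 16, without Shbg) were positive in 8 and negative in 7, with a median of 0.02. At an edgeR unadjusted p under 0.05 there were 3, of which 2 were higher and 1 lower, against 10.1% of all tested genes. Cpt1a, which admits fatty acids to mitochondria, had 0.37 ± 0.16 (SE) at 253 ± 86.03 CPM (SD, n = 6) against 159 ± 25.9 CPM (SD, n = 5). Cyp7a1, which catalyses the rate-limiting step from cholesterol to bile acids, had -0.61 ± 0.23 (edgeR unadjusted p = 0.0195, adjusted p = 0.441), with a difference of -0.87 in r770 and 0.04 in r595. Foxo1 had 0.34 ± 0.20. In edgeR 0 of each target list passed over all genes.

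NR5A2 target genes (15 tested) were positive in 10 and negative in 5, with a median of 0.15. Cyp7a1, which is on this list too, was the 1 at an edgeR unadjusted p under 0.05, against 10.1% of all tested genes. Scarb1, the HDL receptor, had 0.28 ± 0.20 (SE) and Nr0b2, a repressor of bile acid synthesis, 0.32 ± 0.26. Genes linked to ONECUT1 and PROX1 (13 tested of 14, without Cdkn2a) were positive in 6 and negative in 7, with a median of -0.02. The 3 of them at an edgeR unadjusted p under 0.05 (10.1% of all tested genes) were Foxa2, Hnf4a and Cyp7a1, of which the first and second belong to the 9. Glul, a pericentral glutamine synthetase induced by β-catenin, had 0.28 ± 0.16, and Axin2, a feedback target of β-catenin that is on none of these lists, had 0.51 ± 0.27.

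**Figure D5:**
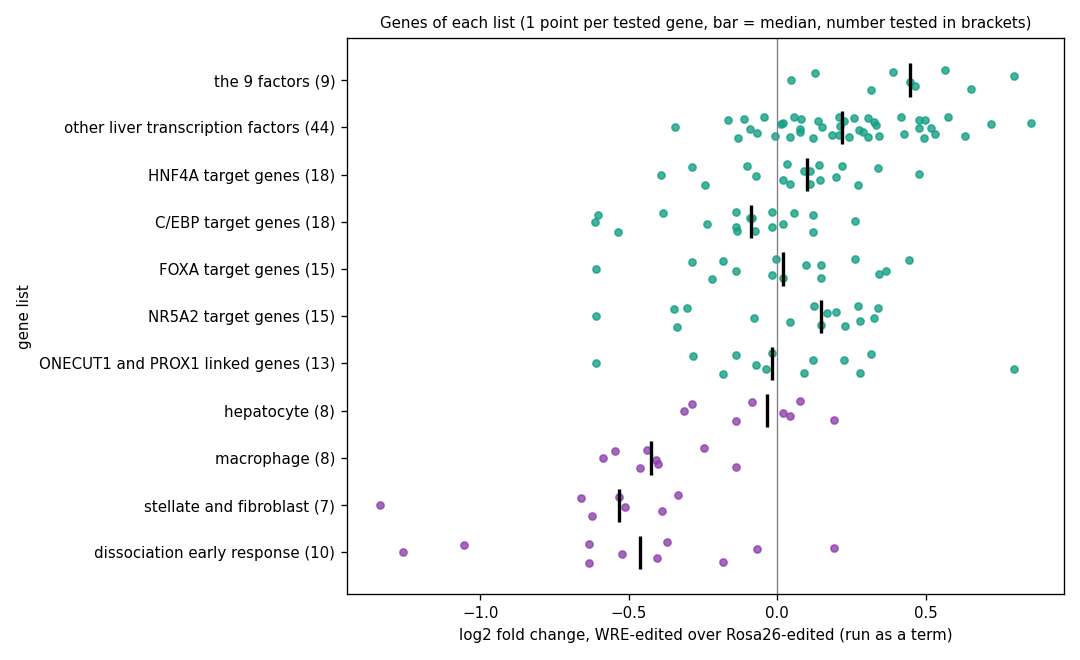
Log2 fold change (x axis) of each tested gene by list, with a bar at the list's median and the number tested in brackets. The 9 factors lie to the right of 0 with a median of 0.45, the other liver transcription factors have a median of 0.22, the target lists have medians from -0.09 to 0.15, and the macrophage, stellate and dissociation lists lie mostly to the left of 0.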

How the data were processed

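The 11 RNA-seq libraries (6 WRE-edited, 5 Rosa26-edited) were used. The deposited gene tables, 1 per library, hold expected counts, TPM and lengths (other values, in bases, per the file headers), made by the authors. The submitters' processing notes name STAR 2.7.6a, RSEM 1.3.1 and GRCm38, with annotation version and strand setting not given in the sources used here. A deposited matrix of normalized signal for 15322 genes (by DESeq2 1.26.0 under R 3.6.3, as their notes list) served as an alternative only, through limma 3.58.1 on log2 values with a pseudocount of 1. The miRNA libraries were not used.

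Gene identifiers were matched to symbols (55450 of 55536). Expected counts were rounded and tested with edgeR 4.0.16 in R 4.3.3: filterByExpr by group (minimum count 10, minimum total 15), TMM factors, run and group as terms, robust quasi-likelihood fit (7 residual degrees of freedom), two-sided, with Benjamini-Hochberg adjustment over 14393 genes at 0.05. The effect comes from r770 and r595, while r711 adds to the spread alone, so a fold change can differ from the ratio of group means. SEs come from the quasi-likelihood statistic. DESeq2 1.42.0 was run on the same genes, and log2 CPM used a prior count of 2. Each library's total (20727036 or more) put 129 or more counts behind each factor in each library. On simulated data over 14393 genes for this comparison, edgeR found 7.46% of changes of 1.41-fold, 61.2% at 2-fold and 90.9% at 4-fold, and called 5 genes falsely.

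The factors and gene lists were chosen with earlier results of these data known. Named genes were the 9 factors, the 2 genes nearest to each, up to 4 genes per list by smallest p, genes overlapping a factor, and Glul, Axin2 and Rian. A few of these are left out of the text. The target lists overlap, and Cyp7a1 is on 3. Same-numbered libraries of r770 did not deviate together (correlations 0.0873, -0.246 and -0.0968), so replicate numbers were not taken as pairs. Alternatives were another tool, scaling, filter, length offset, run subset, run term, replicate block, summed libraries, each library left out, and, chosen after earlier results were known, WRE-edited 3 and 6 left out.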

Additional observations from a re-analysis of the deposited data

Results flagged for a closer look

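Dixon's 95% limit was applied to 18 sets of libraries (9 factors in 2 groups). It was set against the gap between the highest or lowest library and its nearest neighbour, and 3 sets passed. Chance passes this limit in about 1 of 20 sets of independent, like libraries. The sets here mix runs and share libraries between factors, so 3 of 18 cannot be read against that rate. Cebpa reached 109 CPM in WRE-edited 2, where the other 5 WRE-edited libraries had 57.7 to 75.3 CPM, and without that library its log2 fold change was 0.32. Onecut1 reached 43.2 CPM in Rosa26-edited 3, against 13.0 to 20.2 CPM in the other controls, and without that library its log2 fold change was 1.05. Prox1 reached 136 CPM in WRE-edited 5 of r711, against 51.9 to 69.9 CPM in the other 5. That library adds only to the spread, and the log2 fold change of Prox1 was 0.05 with or without it.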

How the results depend on the processing

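Each value on the 9 factors and each count of genes called was recomputed under 24 alternatives. The list medians and the test of a difference between r770 and r595 were recomputed under fewer. The number of all genes called, 1 over all libraries, became 83 with DESeq2, 450 without a filter on low counts, 2 with a replicate block and the run term, and 0 with r770 only, with r770 and r595 only, without the run term, with limma on the deposited matrix, and without WRE-edited 3 and 6; it was 0 to 2 when 1 library was left out. The number of the 9 factors called, 0 over all libraries in edgeR, became 2 with DESeq2, where 0.6% of genes were called. It became 3 without a filter, where 450 of 27704 genes were called. These were Foxa2, Cebpb and Onecut1 (adjusted p 0.000246, 0.00400 and 0.0307 in edgeR, over a range up to 0.998 for each). In that fit the SE of Onecut1 fell from 0.37 to 0.16. That of Foxa3 rose from 0.10 to 0.16, and Foxa3 was not called (edgeR adjusted p = 0.136). The number of the 9 factors called stayed 0 in each of the 11 fits without 1 library. The number at an unadjusted p under 0.05 in edgeR, 5 over all libraries (10.1% of all genes), became 3 with r770 only (3.08% of all genes), 2 without the run term (4.41%), 3 with a replicate block and the run term (4.2%), 2 with that block in place of the run term (4.67%), 1 when the counts of WRE-edited 4 and 6 were summed (4.37%), and 2 without WRE-edited 3 and 6 (3.05%), so the share over all genes was lower in these fits too. It was 3 to 7 when 1 library was left out. The median log2 fold change, 0.45, was 0.17 with the replicate block in place of the run term and 0.32 to 0.59 when 1 library was left out. Prox1, at 0.05 over all libraries, was at -0.11 without Rosa26-edited 2 and at most 0.18 when another library was left out. The test of a difference between r770 and r595 called 0 genes, also with DESeq2 size factors and in 8 fits without 1 library, and was not repeated under the other alternatives. The cause of these changes was not tested. A change of 1.41-fold, near the size of most estimates here, is seldom called with these libraries.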
